A study of Mus musculus with 23 samples.

Results

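The 10 circadian clock genes Per1, Per2, Per3, Cry1, Cry2, Arntl, Clock, Nr1d1, Nr1d2 and Dbp were followed in primary mouse embryonic fibroblasts (MEFs) that differ in the glucocorticoid receptor (GR). The members were taken by symbol, as the rows of the count table whose Ensembl identifier carries that symbol in the GENCODE M21 annotation, and they make up 10 of 55487 genes. All 10 passed the filter on low counts and were tested among 15748 genes. The MEFs were prepared from FVB/NJ embryos without head and organs. Their GR was wild type (GRwt/wt), or held a threonine in place of an alanine where DNA-binding domains of a GR dimer meet (GRD/D), or an alanine in place of an isoleucine in its ligand-binding domain (GRL/L), or carried the pair of changes together (GRD+L/D+L, the double mutant). The GRL/L and double-mutant alleles were made by CRISPR editing of zygotes with a GRwt/D genotype. Cells received vehicle or 10 nM of dexamethasone (Dex), a synthetic GR ligand, for 5 h, and RNA-seq gave 23 libraries in 8 groups of 3, except GRD/D vehicle with 2. Each culture came from a different mouse, MEFs hold several cell types of the embryo, and the time of day at harvest is not given in the sources used here, so that a level is a single reading and not a rhythm.

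The circadian clock is a feedback loop of transcription that most cells run on their own. The activators CLOCK and ARNTL (BMAL1) bind E-boxes and switch on the Per and Cry genes, whose proteins return to the nucleus and repress the activators, and also switch on Nr1d1 and Nr1d2, which encode the nuclear receptors REV-ERBα and REV-ERBβ that repress Arntl. DBP is an output factor of the loop that binds D-boxes. Glucocorticoids are known to set the phase of clocks in peripheral cells, and Per1 is a long-known direct target of GR.

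Libraries held 16.5 to 23.1 M counts. The fibroblast markers summed to between 42030 and 69090 CPM in every library, where CPM are counts divided by the total of the tested genes after TMM scaling, which corrects that total for composition. Markers of epithelial, endothelial and muscle cells summed to at most 20.6 CPM and neural markers to between 53.1 and 172 CPM. GRwt/wt vehicle 1 stood apart, since its highest rank correlation with another library was 0.916, against at least 0.973 for every other. GRwt/wt vehicle 3 had macrophage markers summing to 4944 CPM, while the other GRwt/wt libraries had 17.0 to 101, GRD/D 274 to 1735, GRL/L 309 to 765 and the double mutant 8.10 to 84.2. In bulk RNA, fewer cells of a type and less RNA per cell cannot be told apart. Nr3c1, which encodes GR, had means of 55.0 CPM in GRwt/wt vehicle, with 4.08 CPM in its lowest library, 106 in GRD/D vehicle, 135 in GRL/L vehicle and 205 in double-mutant vehicle. It was called higher in the double mutant than in GRwt/wt in vehicle, beside 8.32% of all genes. The log2 fold change (LFC) was 1.90 ± 0.61 (SE), with an edgeR adjusted p of 0.0370. Under Dex the LFC of Nr3c1 was 1.60 ± 0.61 (edgeR adjusted p 0.1365), which was not called. The part of Nr3c1 in the differences below was not tested. As a check of the treatment, Fkbp5, a GR chaperone gene that GR induces, differed between Dex and vehicle by an LFC of 3.49 ± 0.27 in GRwt/wt, 1.68 ± 0.29 in GRD/D, but 0.12 ± 0.24 in GRL/L and 0.07 ± 0.24 in the double mutant. Tsc22d3, another GR-induced gene, differed by 1.92 ± 0.27, 0.18 ± 0.30, 0.00 ± 0.26 and 0.02 ± 0.26 in the same order, and errors of an LFC are SE throughout.

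In GRCm38, Per1 (ENSMUSG00000020893) spans chr11:69095217-69109960 on the plus strand and Per2 (ENSMUSG00000055866) spans chr1:91415982-91459324 on the minus strand. Per3 (ENSMUSG00000028957) lies at chr4:151003652-151044665, Cry1 (ENSMUSG00000020038) at chr10:85131700-85185064, Clock (ENSMUSG00000029238) at chr5:76209868-76304792 and Nr1d2 (ENSMUSG00000021775) at chr14:18204054-18239127, all on the minus strand. No exon of these 6 genes overlaps an exon of another annotated gene. Nr1d1 overlaps exons of Thra, Dbp of Sphk2, Cry2 of D930015M05Rik and Arntl of Gm45355, each on the other strand, and the strand setting of the counting is not given, so that reads of these pairs may be shared.

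RefSeq promoter windows of GRCm38.p6, which run from 250 bases before to 50 after a start site, were at hand for 9 members in 13 windows, all but Per2. They were searched on both strands for the E-box CACGTG, the E′-box CACGTT, the D-box TTATGNAA, the cyclic-AMP element TGACGTCA, the GR half-site AGAACA and the full GR element, in which that half-site is followed after 3 bases by its reverse complement. The half-site is contained in the full element. No matches overlapped in the members' windows. The stretches with matches in Per1, Per3 and Cry1 are printed because these promoters hold E-boxes or D-boxes, the elements of the loop. Cry2 and Nr1d1 each had 1 match to the E′-box, which is not printed. They are given on the strand of the gene, with the matches in capitals.
Per1, chr11:69098763-69098947, E-box and D-box: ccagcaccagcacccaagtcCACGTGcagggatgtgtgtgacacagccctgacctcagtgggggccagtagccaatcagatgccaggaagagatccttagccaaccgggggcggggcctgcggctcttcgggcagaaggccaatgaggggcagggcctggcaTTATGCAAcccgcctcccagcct
Per3, chr4:151044796-151044890, minus strand, D-boxes: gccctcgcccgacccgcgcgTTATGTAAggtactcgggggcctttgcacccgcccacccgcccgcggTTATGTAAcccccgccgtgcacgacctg
Cry1, chr10:85185089-85185153, minus strand, E′-box and E-box: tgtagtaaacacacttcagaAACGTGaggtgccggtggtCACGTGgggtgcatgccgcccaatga
The Per1 stretch ends 2 bases before the start site of its window, and the capitals of the first match begin 166 bases before that site, which lies inside the span of Per1 in GENCODE. Of all 32851 windows, 7.15% hold the E-box, 4.68% the E′-box, 3.38% the D-box and 1.79% the cyclic-AMP element. The full GR element was found in 0.00913% of all windows and the half-site in 19%. Neither is in any of these 13 windows, which says only that these letters are not there.

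Levels were compared between genes per kilobase of exon (CPM per kb), as the lowest, median and highest of 23 libraries. Nr1d2 had the highest median with 8.39 (0.245 to 15.5), followed by Dbp with 7.73 (6.23 to 14.2), Nr1d1 with 5.90 (3.56 to 9.54), Per1 with 4.81 (2.86 to 14.9) and Cry2 with 4.75 (3.48 to 5.58). Clock had 3.88 (0.0924 to 5.42), Per3 3.37 (2.26 to 4.97), Cry1 3.32 (2.503 to 6.13) and Arntl 3.11 (1.35 to 4.10), and Per2 was last with 1.07 (0.495 to 3.51). The ranges of neighbours in this order overlapped in every case, while those of some distant genes, such as Dbp and Per2, did not. Overlap of ranges does not give the order within a library. In GRwt/wt Dex 2, the highest library for both genes, Cry1 had 6.13 and Per2 3.51, although their ranges overlapped. Per1 and Per2 varied most between group means, with 4.76 and 4.01 times between the highest and the lowest group, and GRwt/wt Dex was the highest group for both.

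**Figure D1:**
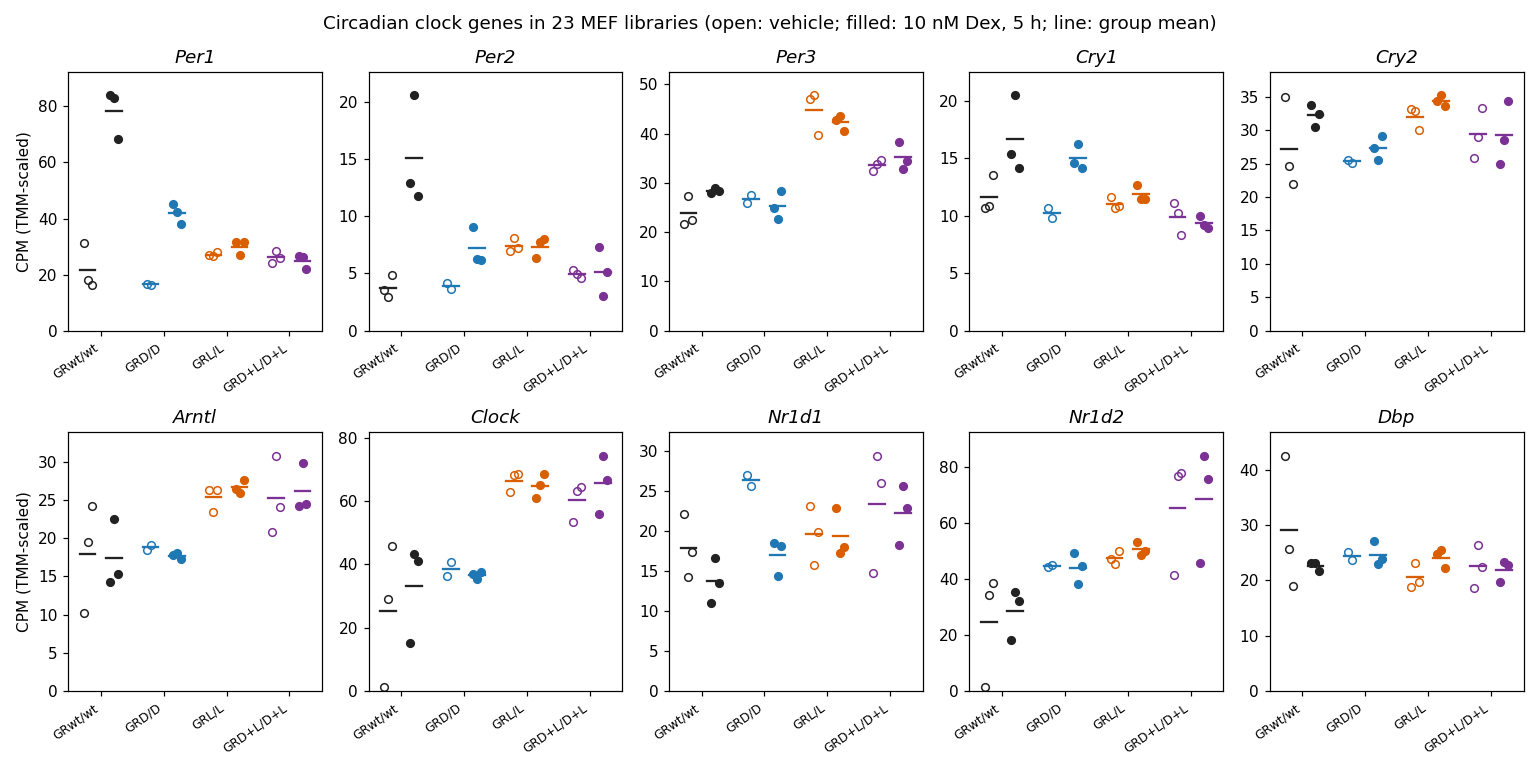
Level of each clock gene in CPM (linear axis from 0) in every library, by genotype, with vehicle as open circles, 10 nM Dex as filled circles and the group mean as a line. Per1 and Per2 in GRwt/wt Dex stand above all vehicle libraries, Per3 is highest in GRL/L, and Clock and Nr1d2 lie near 0 in GRwt/wt vehicle 1, with 1.27 and 1.32 CPM.

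The first question of the design is which clock genes 10 nM Dex moved in each genotype. A gene was called when the Benjamini-Hochberg adjusted p of edgeR's quasi-likelihood test was at most 0.05 and the absolute LFC at least 1. In GRwt/wt, 2 of the 10 clock genes rose, Per1 and Per2, the inducible repressors of the loop, beside 0.159% of all genes tested that were called. Per1 had 31.2, 18.0 and 16.1 CPM in vehicle and 84.0, 83.1 and 68.3 CPM in Dex. All Dex libraries were above all vehicle libraries, and the vehicle library that stood apart was the highest of its group. The LFC of Per1 was 1.85 ± 0.19 (SE), a 3.60-fold rise, with an adjusted p of 0.000102, the second smallest p of the 15748 genes. Per2 had 3.53, 2.90 and 4.85 CPM in vehicle and 12.9, 20.6 and 11.8 CPM in Dex, again without overlap. Its LFC was 2.00 ± 0.29, a 4.00-fold rise, with an adjusted p of 0.00341.

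The calls of Per1 and Per2 in GRwt/wt held without any 1 library of that genotype, with an LFC of Per1 of 2.20 (adjusted p 6.06e-08) without GRwt/wt vehicle 1 and of 1.72 (adjusted p 0.000329) without GRwt/wt vehicle 3, the library with macrophage markers. They were lost in a fit on the GRwt/wt libraries alone, in which Per1 had 1.87 ± 0.31 and Per2 2.01 ± 0.36 with unadjusted p of 0.000754 and 0.00117 and an adjusted p of 0.970 each.

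In GRD/D, 0 of the 10 clock genes were called by edgeR, as were 0% of all genes. An unadjusted p under 0.05 was reached by 4 clock genes, beside 0.978% of all genes, and DESeq2 called 1, Per1, beside 0.00681% of the genes to which it gave an adjusted p. Per1 had 16.7 and 16.2 CPM in the 2 vehicle libraries and 45.3, 42.4 and 38.2 CPM in Dex, so that the groups were far apart. Its LFC was 1.35 ± 0.21 with an adjusted p of 0.0999, which misses the threshold, although its unadjusted p of 6.34e-06 was the smallest of all genes in this comparison. Per1 reached the threshold in 4 of 13 alternative fits and the LFC stayed between 1.29 and 1.41. In DESeq2 its adjusted p was 8.17e-07. Also among these 4 fits was a block by culture number, which may not join GRD/D libraries of the same mouse. Per2 had 4.14 and 3.62 CPM in vehicle and 9.09, 6.25 and 6.19 CPM in Dex, without overlap, with an adjusted p of 1 and an LFC of 0.89 ± 0.33.

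In GRL/L and in the double mutant, 0 of the 10 clock genes were called by edgeR or by DESeq2, 0 had an unadjusted p under 0.05, and 0% of all genes were called by edgeR in either genotype. Over all genes, 0.273% in GRL/L and 0.343% in the double mutant had an unadjusted p under 0.05, and DESeq2 called 0% and 0.017%. Per1 had 27.1, 26.5 and 27.9 CPM in GRL/L vehicle and 31.6, 26.9 and 31.5 CPM in GRL/L Dex, with an LFC of 0.14 ± 0.18 whose 95% interval ran from -0.21 to 0.50. In the double mutant it had 24.0, 28.5 and 25.8 CPM in vehicle and 26.8, 26.1 and 22.1 CPM in Dex, with an LFC of -0.06 ± 0.18 and an interval from -0.42 to 0.29. The libraries of both treatments overlapped in each genotype. The numbers pair libraries of the same mouse there. By number, Per1 was higher in Dex in every GRL/L pair, but in the double mutant for number 1 only. A fit blocked by number did not call Per1 in either genotype. Per2 had 6.94, 8.07 and 7.24 CPM in GRL/L vehicle and 6.33, 7.75 and 7.98 CPM in GRL/L Dex, with an LFC of -0.01 ± 0.28. In the double mutant the values of Per2 were 5.34, 4.94 and 4.59 CPM in vehicle and 7.29, 2.99 and 5.10 CPM in Dex, with an LFC of 0.05 ± 0.29, so that the Dex libraries spread around the vehicle libraries.

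**Figure D2:**
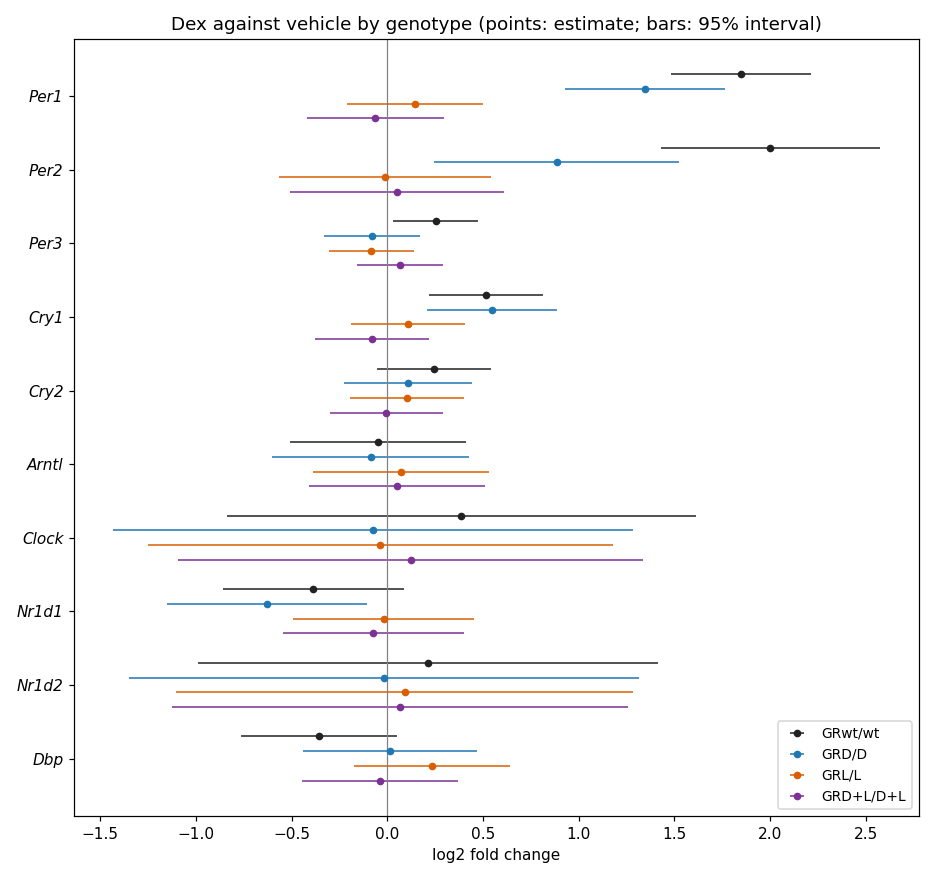
LFC of Dex against vehicle for each clock gene (rows) in the 4 genotypes (colours), with bars of the 95% interval. Per1 lies at 1.85 in GRwt/wt and 1.35 in GRD/D, against 0.14 in GRL/L and -0.06 for GRD+L/D+L, the double mutant, and the bars of Clock and Nr1d2 are the widest.

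Among the other repressors, Cry1, which encodes a cryptochrome that represses CLOCK and ARNTL with the PER proteins, had 10.7, 10.9 and 13.5 CPM in GRwt/wt vehicle against 15.4, 20.5 and 14.2 CPM in GRwt/wt Dex. Its groups did not overlap, and the LFC was 0.51 ± 0.15 with an adjusted p of 0.160, which did not pass. In GRD/D, Cry1 had 10.7 and 9.83 CPM in vehicle and 14.6, 16.2 and 14.2 CPM in Dex, an LFC of 0.55 ± 0.17 with an adjusted p of 1. The difference between these responses of Cry1 was 0.03 ± 0.23, with an interval from -0.41 to 0.48. In GRL/L and the double mutant the LFC of Cry1 was 0.11 ± 0.15 and -0.08 ± 0.15. Per3, a member of the Per family with a lesser role in the loop, had an LFC of 0.25 ± 0.11 in GRwt/wt and between -0.08 and 0.07 in the mutants. Cry2, which encodes the other cryptochrome, had an LFC of 0.24 ± 0.15 in GRwt/wt and of at most 0.11 in the mutants.

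The activators, the REV-ERB genes and Dbp were not called with Dex in any genotype. Arntl, the gene of the activator that REV-ERBα represses, had LFCs from -0.09 to 0.07. Clock ranged from -0.07 ± 0.69 in GRD/D to 0.39 ± 0.62 in GRwt/wt, and Nr1d2 from -0.02 ± 0.68 to 0.21 ± 0.61 in GRwt/wt. The 95% intervals reached from -1.44 to 1.61 for Clock and from -1.35 to 1.41 for Nr1d2. Over the alternative fits, the LFC in GRwt/wt took both signs for Clock, Nr1d2 and Arntl, from -0.17 without GRwt/wt vehicle 1 to 1.16 without GRwt/wt vehicle 3 for Clock, from -0.34 to 0.89 for Nr1d2 and from -0.33 to 0.26 for Arntl. Nr1d1 had 27.0 and 25.5 CPM in GRD/D vehicle and 18.5, 14.4 and 18.1 CPM in GRD/D Dex, without overlap, with an LFC of -0.63 ± 0.27 and an adjusted p of 1. Arntl in GRD/D was also without overlap, at an LFC of -0.09, and the share of all genes without overlap was not computed. In GRwt/wt, Nr1d1 had 22.1, 14.2 and 17.3 CPM in vehicle and 10.97, 16.5 and 13.5 CPM in Dex, which overlapped, with an LFC of -0.39 ± 0.24. Dbp, a target of the activators, had an LFC of -0.36 ± 0.21 in GRwt/wt, which became 0.03 ± 0.15 without GRwt/wt vehicle 1. The median LFC of the 10 members was 0.25 in GRwt/wt, 0.08 in GRL/L, 0.02 in the double mutant and -0.0021 in GRD/D, beside medians over all genes between -0.0093 and 0.003.

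Whether the response to Dex differed between genotypes was tested as an interaction, the response of each mutant minus that of GRwt/wt, in which the GRwt/wt libraries are shared. For GRD/D, 0 of 10 clock genes were called by edgeR or DESeq2, 1 had an unadjusted p under 0.05 beside 7.11% of all genes, and 0% of all genes were called by edgeR and 0.102% by DESeq2. Per1 differed by -0.50 ± 0.27 and Per2 by -1.12 ± 0.43, with edgeR adjusted p of 0.761 and 0.688. DESeq2 gave Per2 no adjusted p in this comparison. For GRL/L, Per1 was called, 1 of 10 clock genes beside 0.0254% of all genes. The difference for Per1 was -1.71 ± 0.26 with an adjusted p of 0.0148. For the double mutant, Per1 was again the 1 clock gene called, beside 0.0254% of all genes, with -1.91 ± 0.26 and an adjusted p of 0.00681. Per2 differed by -2.02 ± 0.40 in GRL/L and -1.95 ± 0.41 in the double mutant, with adjusted p of 0.175 and 0.209 in edgeR and of 0.000945 and 0.00212 in DESeq2, which called 0.097% and 0.116% of all genes.

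The call of Per1 in GRL/L was close to the threshold, as it was lost without any 1 of the GRL/L libraries. The adjusted p was then 0.0561, 0.0886 and 0.0682 without GRL/L Dex 1, 2 and 3, and 0.0530, 0.0611 and 0.0592 without GRL/L vehicle 1, 2 and 3. It was also lost without GRwt/wt Dex 2, at 0.0638, while the estimate stayed between -1.57 and -2.05 in all alternative fits. The call of Per1 in the double mutant was kept in 21 of 22 alternative fits, the exception being the fit on only the genotypes compared.

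Under Dex itself, the mutants were compared with GRwt/wt without any vehicle library in the means. In GRD/D, 0 of 10 clock genes were called by edgeR, beside 0.254% of all genes, with 2 at an unadjusted p under 0.05, beside 11.1% of all genes, and 1, Per2, called by DESeq2, beside 1.79%. Per1 was at an LFC of -0.90 ± 0.18 with an adjusted p of 0.0441, short of the fold threshold. In GRL/L, 2 of 10 clock genes were called lower, Per1 and Per2, beside 2.59% of all genes called in either direction. In the double mutant the same 2 of 10 genes were called lower, beside 2.75% of all genes. The LFC of Per1 was -1.39 ± 0.18 (adjusted p 0.000740) in GRL/L and -1.65 ± 0.19 (adjusted p 0.000182) in the double mutant, and that of Per2 was -1.04 ± 0.28 (adjusted p 0.0407) and -1.56 ± 0.29 (adjusted p 0.00651).

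Per2 in GRL/L under Dex was at the threshold. Its call was lost at adjusted p of 0.148, 0.123 and 0.0962 without GRL/L Dex 1, 2 and 3 and of 0.0626, 0.134 and 0.0613 without GRwt/wt Dex 1, 2 and 3. Cry1 under Dex had 9.95, 9.20 and 8.95 CPM in the double mutant, all below the 3 GRwt/wt values, with an LFC of -0.83 ± 0.15 and an adjusted p of 0.00636, under the fold threshold. Cry1 in GRL/L had 12.7, 11.5 and 11.4 CPM, also below GRwt/wt, with an LFC of -0.49 ± 0.15 and an adjusted p of 0.0679.

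Without Dex, the basal levels were compared between genotypes. In GRD/D vehicle, 0 of 10 clock genes were called against GRwt/wt by edgeR or DESeq2, beside 0.00635% and 0.206% of all genes, and 0 had an unadjusted p under 0.05, beside 12.4%. In GRL/L vehicle, 0 of 10 were called by edgeR, beside 7.78% of all genes, and 1, Per2, by DESeq2, beside 9.08%. An unadjusted p under 0.05 was reached by 5 of 10, beside 37.1% of all genes. In double-mutant vehicle, 0 of 10 were called by edgeR or DESeq2, beside 8.32% and 10.1% of all genes, and 2 of 10 had an unadjusted p under 0.05, beside 35.6%.

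Per3 differed in basal level between genotypes. It had 21.7, 27.4 and 22.4 CPM in GRwt/wt vehicle, which compared with 25.8 and 27.6 CPM in GRD/D vehicle, 47.0, 47.7 and 39.6 CPM in GRL/L vehicle and 32.4, 33.7 and 34.6 CPM in double-mutant vehicle. The GRL/L libraries were the highest and the double-mutant libraries lay between them and the rest, with no overlap. Against GRwt/wt, the LFC of Per3 was 0.91 ± 0.11 in GRL/L (adjusted p 0.000146) and 0.50 ± 0.11 in the double mutant (adjusted p 0.00715), both under the fold threshold. It was 0.85 and 0.45 without GRwt/wt vehicle 1, and 0.91 and 0.50 without GRwt/wt vehicle 3, with adjusted p between 0.000113 and 0.00915. In GRL/L, Per3 passed the fold threshold in 1 of 16 alternative fits, that without GRwt/wt vehicle 2, at an LFC of 1.003 (adjusted p 0.000231). With GRwt/wt vehicle 2 as the lone GRwt/wt vehicle library, the highest of its group for Per3, a fit chosen after the data were seen, the LFC of Per3 was 0.69 in GRL/L (adjusted p 0.00192) and 0.28 in the double mutant (adjusted p 0.152). The same genotypes were higher under Dex, with 42.7, 43.7 and 40.5 CPM in GRL/L and 38.3, 32.8 and 34.4 CPM in the double mutant against 27.9, 28.9 and 28.3 CPM in GRwt/wt. There the LFC of Per3 was 0.58 ± 0.11 (adjusted p 0.00783) and 0.31 ± 0.11 (adjusted p 0.126).

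Per2 without Dex was also higher in GRL/L than in GRwt/wt, without overlap, at 0.98 ± 0.29 (adjusted p 0.0207), just under the fold threshold. It passed in 6 of 16 alternative fits, among them that without GRwt/wt vehicle 3, at 1.25 (adjusted p 0.00681). In the double mutant the LFC of Per2 was 0.40 ± 0.29. Per1 without Dex differed from GRwt/wt by 0.32 ± 0.18 in GRL/L and 0.26 ± 0.18 in the double mutant, and by 0.67 ± 0.12 (adjusted p 0.000882) and 0.63 ± 0.12 (adjusted p 0.00164) when GRwt/wt vehicle 1 was left out. The macrophage marker sums in vehicle were 321 to 734 CPM in GRL/L, 9.83 to 84.2 CPM in the double mutant and 18.6 to 4944 CPM in GRwt/wt, and their part in these levels was not tested.

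**Figure D3:**
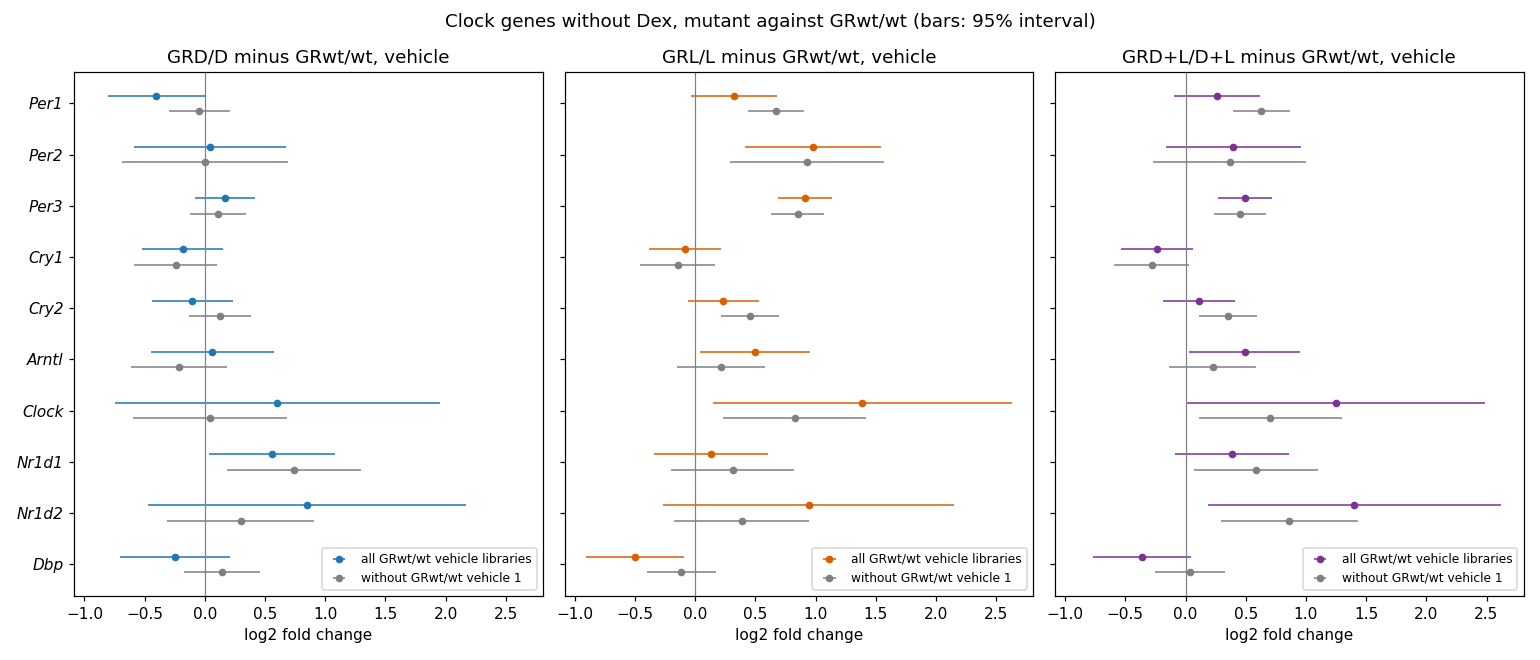
LFC of each mutant against GRwt/wt in vehicle, with all GRwt/wt vehicle libraries (colour) and without GRwt/wt vehicle 1 (grey), with bars of the 95% interval. Per3 stays at 0.91 and 0.85 in GRL/L, while Clock moves from 1.39 to 0.83 and Dbp from -0.50 to -0.11.

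The mutants were also compared with each other in vehicle, where no GRwt/wt library enters the means. Against GRD/D, 0 of 10 clock genes were called in GRL/L, beside 1.08% of all genes, and 0 of 10 in the double mutant, beside 1.02% of all genes. Between the double mutant and GRL/L, 0 of 10 were called, beside 0.0953% of all genes. DESeq2 called 0 clock genes in each of these comparisons, beside 2.39%, 3.11% and 1.13% of all genes in the same order. An unadjusted p under 0.05 was reached by 3, 2 and 1 clock genes, beside 15.5%, 15.5% and 9.57% of all genes. Per3 was higher in GRL/L than in GRD/D by 0.75 ± 0.13 (adjusted p 0.00666), under the fold threshold, and lower in the double mutant than in GRL/L by -0.42 ± 0.11 (adjusted p 0.197).

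Clock and Nr1d2 had their lowest values in GRwt/wt vehicle 1. Clock had 1.27, 28.9 and 45.8 CPM in GRwt/wt vehicle, the first from 23 counts, against 15.1, 43.3 and 41.1 CPM in GRwt/wt Dex. In GRL/L vehicle it had 62.8, 68.2 and 68.5 CPM and in double-mutant vehicle 53.3, 63.3 and 64.5 CPM, above all GRwt/wt libraries. Nr1d2 had 1.32, 34.1 and 38.5 CPM in GRwt/wt vehicle, the first from 24 counts, and 18.3, 35.3 and 32.2 CPM in GRwt/wt Dex, so that the library numbered 1 was the lowest of both treatments for each gene. In the double mutant the values of Nr1d2 were 41.2, 76.6 and 77.8 CPM in vehicle and 45.6, 83.9 and 75.5 CPM in Dex, with number 1 again the lowest.

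With all libraries, Clock differed from GRwt/wt in vehicle by 1.39 ± 0.63 in GRL/L and 1.25 ± 0.63 in the double mutant, with adjusted p of 0.120 and 0.164. Without GRwt/wt vehicle 1, the differences of Clock were 0.83 ± 0.30 and 0.71 ± 0.30, with adjusted p of 0.0565 and 0.101. Without GRwt/wt vehicle 3 they were 2.16 and 2.03, with adjusted p of 0.0273 and 0.0420, and Clock was then called in both. In a fit chosen after the data were seen that left out both GRwt/wt libraries numbered 1, the SE of Clock fell to 0.16, the differences were 0.83 and 0.70, and the adjusted p were 0.00146 and 0.00495, below the fold threshold. With all libraries, Nr1d2 differed from GRwt/wt in vehicle by 0.94 ± 0.62 in GRL/L and 1.40 ± 0.62 in the double mutant (adjusted p 0.272 and 0.116), and under Dex by 1.26 ± 0.62 in the double mutant (adjusted p 0.256). The fit without both GRwt/wt libraries numbered 1, which kept the low double-mutant libraries numbered 1, gave 0.38 ± 0.25 and 0.86 ± 0.25 for Nr1d2 in vehicle (adjusted p 0.265 and 0.0183). Under Dex it gave 1.02 ± 0.25 (adjusted p 0.0144) in the double mutant, the only 1 of 15 alternative fits that called Nr1d2 there.

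These members differ in base composition. The mean GC content of the annotated transcripts was 41.4% for Clock and 45.4% for Nr1d2, at percentiles 6.43 and 21.4 of the tested genes, and 56.7% for Dbp and 58.8% for Per1, at percentiles 84.0 and 92.7. In GRwt/wt vehicle 1 the log2 CPM deviated from the median of all libraries by -5.14 for Clock, -4.86 for Nr1d2 and -1.19 for Arntl, and by 0.87 for Dbp, 0.28 for Nr1d1, 0.22 for Cry2 and 0.20 for Per1. Cry1 deviated by -0.06 and Per3 by -0.57. Per2 deviated by -0.78, although its GC content of 56.0% was close to that of Dbp. Across 15735 tested genes, the deviation of a gene in that library had a rank correlation of 0.686 with GC content, in GRwt/wt Dex 1 of 0.325, and between -0.206 and 0.105 in the other libraries. The part of GC content in the low values of Clock and Nr1d2 was not tested.

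**Figure D4:**
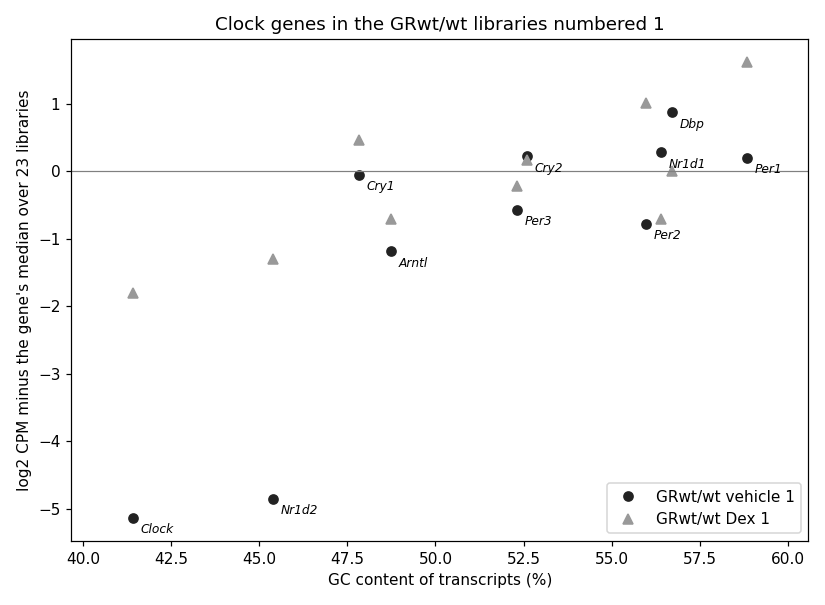
Deviation of each clock gene from its median over 23 libraries (log2 CPM) against the mean GC content of its transcripts, in GRwt/wt vehicle 1 (circles) and GRwt/wt Dex 1 (triangles). Clock and Nr1d2, the members lowest in GC, lie at -5.14 and -4.86 in the vehicle library, and Dbp at 0.87.

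Further genes of the clock, 22 listed and all tested, were counted in the same comparisons. With Dex in GRwt/wt, 1 of 22 was called, beside 0.159% of all genes. It was Wee1, the kinase gene that links the clock to the cell cycle. Wee1 overlaps other annotated genes, and it had 17.8 ± 2.8 CPM (SD, n = 3) in vehicle and 46.3 ± 8.5 CPM in Dex. The LFC of Wee1 was 1.38 ± 0.15 with an adjusted p of 0.000154. Usp2, a deubiquitinase gene of clock output, had an LFC of 1.21 ± 0.27 with an adjusted p of 0.0844 and did not pass. The median LFC of the 22 genes was 0.07, beside -0.01 for all genes. None of the 22 was called with Dex in the 3 mutants, where 0 in each genotype also had an unadjusted p under 0.05. The response of Wee1 was called smaller than in GRwt/wt in GRL/L, at -1.40 ± 0.21 (adjusted p 0.0148), and in the double mutant, at -1.46 ± 0.21 (adjusted p 0.0103), as for Per1, and differed by -1.04 ± 0.22 (adjusted p 0.471) in GRD/D.

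In vehicle against GRwt/wt, 0 of 22 further clock genes were called by edgeR in GRD/D, where 1 had an unadjusted p under 0.05 beside 12.4% of all genes. In GRL/L, 2 of 22 were called and in the double mutant 3 of 22, near the 7.78% and 8.32% of all genes called there. Rora, an activator that competes with the REV-ERB proteins, was higher in GRL/L by 2.00 ± 0.52 and in the double mutant by 1.504 ± 0.51 (adjusted p 0.0112 and 0.0466), but its GRwt/wt vehicle values spread from 3.09 to 29.8 CPM. Nfil3, the repressor that binds D-boxes, was lower in both, by -1.24 ± 0.22 and -1.03 ± 0.22 (adjusted p 0.00111 and 0.00417), with means of 23.8 ± 1.6 CPM in GRwt/wt, 10.1 ± 0.8 in GRL/L and 11.6 ± 2.9 in the double mutant (SD, n = 3 each). Rorb was called lower in the double mutant at levels of at most 1.40 CPM in both genotypes. Under Dex, 1 of 22 was called lower in GRD/D and 2 were in GRL/L, beside 0.254% and 2.59% of all genes called in either direction. Usp2 was lower in all 3 mutants, by -1.52, -1.62 and -1.52, Nfil3 in GRL/L and the double mutant by -1.71 and -1.57, and Wee1 in the double mutant by -1.25. Rorb was again called lower in the double mutant under Dex, at levels of at most 2.00 CPM in both genotypes.

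By the Pearson correlation of log2 CPM over 23 libraries, among 13241 genes with a mean of at least 1 CPM, the genes most like Per1 were Plekhf1 (0.90), Ust (0.90), Fkbp5 (0.87), Spock2 (0.84) and Per2 (0.81). Those most like Dbp were Txndc5 (0.90), Borcs6 (0.90), Abhd8 (0.88), Btrc (0.86) and Ogfod2 (0.86). Among the members, Clock and Nr1d2 had 0.96, and 0.97 for deviations from the group means, values that share the low libraries numbered 1. Per1 and Per2 had 0.81, but 0.0048 for deviations from the group means.

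Across the 11 vehicle libraries, 3 pairs of members were tested with a two-sided permutation test, with adjustment over the 3 pairs. Arntl with its repressor Nr1d1 had a Pearson r of 0.07 (permutation p 0.859, adjusted 0.859) and a Spearman rho of 0.15 (permutation p 0.653). Nr1d1 with Dbp had 0.26 (permutation p 0.477, adjusted 0.715) and 0.33 (permutation p 0.328). Per3 with Dbp had -0.49 (permutation p 0.1252, adjusted 0.376) and -0.42 (permutation p 0.204). Without GRwt/wt vehicle 1 alone, r was 0.27, 0.35 and -0.21. Without the 2 libraries farthest from the median of the first gene, r was -0.02, 0.25 and -0.32, and for deviations from genotype means it was -0.0014, 0.47 and -0.08. No pair passed by Pearson's r, Spearman's rho or the deviations from genotype means, and r without the 2 farthest libraries was not tested.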

How the data were processed

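RNA-seq was performed on vehicle- and Dex-treated MEFs (10 nM, 5 h) of 4 genotypes, and groups were taken from the genotype and treatment labels. The deposited table holds raw counts per Ensembl gene. To make them, the authors used TruSeq library preparation, mapped the reads to mm10 with HISAT2 (2.1.0), retained uniquely mapped reads and counted them with featureCounts (2.0.0), per the submitters' processing notes. The annotation release and strand setting are not given in the sources used here. Column names gave the sample of every column.

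Symbols, coordinates and exon lengths came from GENCODE M21 (GRCm38), which holds 55227 of the 55487 identifiers. Counts were analysed in R 4.3.3 with edgeR 4.0.16 (glmQLFit, glmQLFTest) on all 23 libraries with 1 mean per group, TMM factors, filterByExpr (15748 genes) and a prior count of 0.125, in 16 comparisons. SE is the absolute LFC divided by the square root of F. Calls needed an LFC of 1 or more in either direction and an adjusted p of at most 0.05 over all genes, as in the study. Adjusted p-values are from edgeR unless DESeq2 (1.42.0) is named. CPM divides counts by the TMM-scaled total of tested genes. Correlations used log2 CPM, with 0.25 added where genes were ranked by likeness to Per1 or Dbp, and permutation tests drew 100000 resamples. The fit was also run on simulated counts, whose outcome is not given here. They held no outlying library, GC trend or pairing of cultures. Libraries of a group differed beyond counting noise (lowest mean chi-square per gene 9.62).

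The named genes were the 10 members, the further clock genes called in a comparison, Usp2, Fkbp5, Tsc22d3, Nr3c1 and the 5 genes most like Per1 and Dbp, and Nr1d2 in the added fit. The members and lists were chosen with earlier results of these data known. The numbers of cultures pair vehicle and Dex libraries of the same mouse in GRL/L (correlation of deviations from group means 0.376, 0.695 and 0.686) and GRD+L/D+L (0.911, 0.821 and 0.720), where the block changed no call of Dex against vehicle. In GRwt/wt (0.561 for number 1, 0.0471 and 0.0028) and GRD/D (0.0088) the values did not show a pairing of every number. The GRD/D check compared vehicle libraries with Dex 1 and 2 but not with Dex 3. Macrophage and neural marker sums of GRD/D vehicle 2 were 281 and 171.5 CPM, near the 273.9 and 169.8 of Dex 3, against 1735 and 128 in Dex 2. The GR alleles are point mutations, which counts per gene cannot check. DESeq2 shares are over the genes to which it gave an adjusted p. Depth was 16.5 to 23.1 M counts, and the lowest count of a member was 23. A result on 1 further clock gene under Dex is not reported here, and the count of called genes that includes it was left out.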

Additional observations from a re-analysis of the deposited data

Results flagged for a closer look

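The response of Per1 to Dex differed between genotypes by the interaction test. The LFC of Dex against vehicle was lower in GRL/L than in GRwt/wt by -1.71 ± 0.26 and lower in GRD+L/D+L than in GRwt/wt by -1.91 ± 0.26, with edgeR adjusted p of 0.0148 and 0.00681. In both mutants the vehicle and Dex values of Per1 overlapped, while in GRwt/wt the 3 Dex libraries were above the 3 vehicle libraries. The GRL/L difference lost its call without GRL/L Dex 1, 2 or 3 (adjusted p 0.0561, 0.0886 and 0.0682), without GRL/L vehicle 1, 2 or 3 (0.0530, 0.0611 and 0.0592) and without GRwt/wt Dex 2 (0.0638). No group held enough libraries for the test of a single outlying library.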

How the results depend on the processing

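Among recomputed counts of called clock genes, 230 equalled the reported count or stayed within 1.5 times it and 40 did not, and the cause was not tested. Most comparisons had a reported count of 0, and counts that stayed at 0 are among the 230, which therefore says little on the stability of calls. Fitting only the genotypes compared gave 0 in place of 2 with Dex in GRwt/wt, 1 in place of 0 with Dex in GRD/D, 0 in place of 1 in the interactions of GRD+L/D+L and of GRL/L, and 1 in place of 2 for GRL/L and for GRD+L/D+L against GRwt/wt under Dex. With Dex in GRD/D, 1 clock gene (Per1) was also called with at least 10 counts in every library, with DESeq2 and with the replicate block, and the block gave 1 in place of 2 for GRL/L against GRwt/wt under Dex. The block changed no other count. In GRwt/wt, number 1 correlated best with its own number, and 2 and 3 with each other. The block joined libraries by number, so in GRwt/wt and GRD/D it may not join libraries of the same mouse. DESeq2 gave 2 in place of 1 in the interactions of GRD+L/D+L and of GRL/L, 1 in place of 0 for GRL/L in vehicle and 1 in place of 0 for GRD/D under Dex. Upper-quartile scaling gave 0 in place of 1 in the interaction of GRL/L. RLE scaling and at least 10 counts in every library each gave 1 in place of 0 for GRL/L in vehicle, and no filter gave 1 in place of 2 for GRL/L under Dex. By adjusted p alone, which calls 23% and 20.4% of all genes for GRL/L and GRD+L/D+L in vehicle, the counts were 2 and 1 there, 1 for GRD/D under Dex and 1 for GRL/L against GRD/D in vehicle. With a library left out, counts ranged from 0 to 1 in the interaction of GRL/L, from 0 to 2 for GRL/L in vehicle, from 0 to 1 for GRD+L/D+L in vehicle, and were 1 in each case for GRL/L under Dex. Per2 and Clock (2 genes) were called for GRL/L in vehicle when GRwt/wt vehicle 2 was the lone library of its group, assumed to vary like the others, a setting chosen after seeing the data. The correlation of Arntl with Nr1d1 ranged from -0.138 without GRD+L/D+L vehicle 2 to 0.266 without GRwt/wt vehicle 1. In no comparison did the LFC of a member that was called there in some fit reverse. The lowest counts of members were 23 and 24 for Clock and Nr1d2 in GRwt/wt vehicle 1, and 52 for Per2, and precision is lowest there.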
